A study of Mus musculus with 10 samples.

Results

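Chromatin accessibility of 10 genes of the leukotriene and prostaglandin pathways (Alox5, Alox5ap, Ltc4s, Cysltr1, Hpgds, Ptgdr2, Ptger4, Ptger2, Ptgir, and Ptgs1) was followed in group 2 innate lymphoid cells (ILC2s) of 5 mouse tissues. ATAC-seq uses the Tn5 transposase, which cuts open chromatin and inserts adapters there, so that the reads at a region reflect its accessibility. A region of the count table belonged to a gene when its centre lay inside the gene or when its nearest transcription start site (TSS) was that of the gene. By this rule, 60 of the 50039 regions belonged to the 10 genes, namely 15 to Ptger2, 10 to Alox5, 9 each to Cysltr1 and Ptger4, 6 to Hpgds, 3 each to Alox5ap, Ptgir, and Ptgs1, and 1 each to Ltc4s and Ptgdr2. Of these regions, 27 lay inside their own gene, and the other 33 were given to it by the nearest TSS, and nearness alone leaves the target of a distal region unknown.

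The ILC2s came from wild-type, untreated male C57BL/6 mice aged 6 weeks. The tissues were BM (bone marrow), lung, pancreas, and the large (LI) and small (SI) intestine, and each had 2 libraries of 50000 sorted cells, for which 16 mice were pooled in BM, lung, and pancreas and 10 mice in LI and SI. BM ILC2s were sorted as Lin-ST2+CD25+ cells on a sorter of their own, LI, lung, and pancreas ILC2s as Lin-CD45+CD127+ST2+CD25+ cells, and SI ILC2s by CD45, CD127, KLRG1, and a reduced level of Thy1, without ST2, so that gate and sorter cannot be told apart from tissue, nor the number of pooled mice from intestine against the other tissues. The lineage cocktail held CD3, B220, CD11b, FcεRI, and CD11c. Total counts per library ranged from 10282987 to 32797872, and the lowest total was that of pancreas replicate 2, in which the largest region alone held 9% of the counts. The p-values measure the spread between these pooled libraries, and in bulk cells, fewer cells with an open region and less accessibility per cell cannot be told apart.

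The sorted cells were checked at promoters. All 9 ILC2 marker genes had a region at their promoter, and these summed to between 233 and 398 CPM (counts scaled to library sizes that TMM normalization had adjusted). No region of the table lay at the promoters of the 7 mast cell, 4 basophil, 4 eosinophil, 4 B cell, 4 NK cell or ILC1, and 3 ILC3 markers. Mast cells, basophils, and eosinophils are among the myeloid cells known for leukotriene synthesis. Markers of neutrophils were not read. Macrophage markers had a region at 3 of 6 promoters, with none at Csf1r, Adgre1, and Lyz2, and their sums ranged from 17.3 to 27.7 CPM in BM, LI, lung, and pancreas and from 27.3 to 37.3 CPM in SI. Dendritic cell markers had a region at 2 of 4 promoters, with none at Xcr1 and Itgax. They summed to 29.9 to 34.7 CPM in BM and to 18.3 to 39.3 CPM in SI. In LI the sums were 18.3 to 21.4 CPM, in lung 17.0 to 18.1 CPM, and in pancreas 12.1 to 17.1 CPM. T cell markers had a region at 2 of 4 promoters, with none at Cd4 and Cd8a, and their sums ranged from 4.71 to 10.0 CPM over the libraries. The part of other cells in the differences below was not tested. The promoter of Il1rl1, the gene of ST2, held 3.55 and 4.53 CPM in the SI libraries and between 10.4 and 41.9 CPM in the other 8. The SI gate left out ST2, which the paper says is low on SI ILC2s, so gate and tissue cannot be told apart here.

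Leukotrienes and prostaglandins are lipid mediators made from arachidonic acid. 5-lipoxygenase (Alox5) and its activating protein (Alox5ap) form leukotriene A4, which leukotriene C4 synthase (Ltc4s) conjugates with glutathione to give the cysteinyl leukotrienes, and these act on receptors such as Cysltr1. The cyclooxygenase Ptgs1 forms prostaglandin H2, from which haematopoietic prostaglandin D synthase (Hpgds) makes prostaglandin D2 and other synthases make prostaglandin E2 and prostacyclin. Cysteinyl leukotrienes and prostaglandin D2, through its receptor CRTH2 (Ptgdr2), are known activators of ILC2s, whereas prostaglandin E2 and prostacyclin, whose receptors couple to cAMP, are known to restrain them.

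Of the 60 regions, 36 (60%) differed over the 5 tissues by edgeR's F test at an adjusted p under 0.05, where 44.2% of all regions tested did. Without the 10 regions of Alox5, which all differed, 26 of 50 (52.0%) did. The median log2 difference between the highest and the lowest tissue was 1.18 over the 60 regions and 0.93 over all regions tested. SI had the lowest mean in 32 of the 60 regions, and pancreas had the highest in 22. Ptger2 gave 12 of the 32, and Alox5 and Ptger2 gave 8 each of the 22. The shares of all regions with such means were not counted, so these counts are descriptions. A region was called highest or lowest in a tissue when all 4 contrasts with the others went that way at unadjusted p-values under 0.05. Of the 60 regions, 5 were highest in pancreas (1.43% of all regions were) and 9 were lowest in SI (3.59% of all). Both counts rest largely on a single gene. Those highest in pancreas were Alox5 +18.1, +21.3, +22.2, and +30.1 kb and Ptger2 +1.9 kb. Those lowest in SI were mostly downstream of Ptger2 (+17.8, +23.4, +46.4, +52.7, +87.1, and +101.3 kb). The others were Alox5 +33.4 kb, Alox5ap +2.6 kb, and Cysltr1 +7.7 kb. BM was the highest tissue of 1 region (4.50% of all) and the lowest of 3 (6.63%), lung was the highest of 1 (1.30%) and the lowest of 1 (1.72%), and no region was highest in LI (1.30%) or SI (2.80%) or lowest in LI (0.132%) or pancreas (0.572%). In the direct contrast of pancreas and SI, 26 regions (43.3%) were called at an adjusted p under 0.05, where 20.5% of all regions were, and 24 of these were higher in pancreas. LI was lower than pancreas at 10 regions (16.7%; 3.27% of all regions differed between these tissues in either direction) and higher at none. With counts summed over the regions of each gene, this contrast was called for Alox5 (adjusted p = 1.3e-05) and Ptgir (adjusted p = 0.045). It was called for no other member gene. BM exceeded SI at 19 of the 21 regions called (35%; 25.8% of all), and lung exceeded SI at 16 of 18 (30.0%; 21.0% of all). Between BM and pancreas, 16 regions were called (26.7%; 24.2% of all), of which 15 were lower in BM. The shares of all regions in these contrasts are for either direction. How the calls over all regions split by direction was not counted, so the splits here are not known to be particular to these genes. The other contrasts called 14 regions for BM and LI (23.3%; 30.9% of all), 11 for BM and lung (18.3%; 19.0%), 7 for LI and lung (11.7%; 10.9%), 6 for LI and SI (10.0%; 8.44%), and 4 for lung and pancreas (6.67%; 5.82%), so their shares were near or below those of all regions. Promoters were few among the 60 regions, with 4 (6.67%) against 19.2% of all regions, whereas 34 (56.7%) lay in genes and 22 (36.7%) between genes.

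The results turn on 8 of these regions, and the 200 bases at the centre of each are printed from the mm10 genome on the forward strand. For Alox5 they are the regions highest in pancreas at adjusted p-values and the intron 1 region at which BM and pancreas were not separated, for Ptger4 and Ptgir the pairs at which BM takes opposite places, and for Ptger2 the region with its smallest p. The capitals mark matches on either strand to letters known from transcription factors. For GATA factors AGATAA and also TGATAA were searched, which share their last 5 bases. For AP-1 the letters were TGANTCA, for RUNX factors TGTGGT, for ETS factors AGGAAG, for the core of the AHR site GCGTG, for nuclear receptors AGGTCA, and for the GC box GGGCGG. Matches to different letters may overlap.
Alox5 +21.3 kb: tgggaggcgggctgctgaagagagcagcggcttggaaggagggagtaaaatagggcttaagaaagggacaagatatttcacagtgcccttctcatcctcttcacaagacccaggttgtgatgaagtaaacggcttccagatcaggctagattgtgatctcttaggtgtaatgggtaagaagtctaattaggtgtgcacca
Alox5 +22.2 kb: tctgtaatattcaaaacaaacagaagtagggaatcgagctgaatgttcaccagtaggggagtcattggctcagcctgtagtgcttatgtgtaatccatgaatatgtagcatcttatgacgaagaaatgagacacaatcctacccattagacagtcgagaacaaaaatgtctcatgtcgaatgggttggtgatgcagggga
Alox5 +4.5 kb: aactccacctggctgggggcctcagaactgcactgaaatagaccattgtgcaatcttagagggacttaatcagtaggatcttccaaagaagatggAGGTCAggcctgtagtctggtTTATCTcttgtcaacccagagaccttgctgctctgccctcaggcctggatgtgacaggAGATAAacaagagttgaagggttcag
Ptger4 +5.4 kb: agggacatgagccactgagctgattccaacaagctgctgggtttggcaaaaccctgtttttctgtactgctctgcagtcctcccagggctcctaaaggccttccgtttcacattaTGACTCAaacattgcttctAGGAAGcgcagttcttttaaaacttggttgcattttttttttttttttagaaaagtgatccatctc
Ptger4 −17.0 kb: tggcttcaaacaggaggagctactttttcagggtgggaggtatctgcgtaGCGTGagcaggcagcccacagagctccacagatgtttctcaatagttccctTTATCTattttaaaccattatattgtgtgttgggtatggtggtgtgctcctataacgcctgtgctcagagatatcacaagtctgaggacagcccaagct
Ptgir −0.7 kb: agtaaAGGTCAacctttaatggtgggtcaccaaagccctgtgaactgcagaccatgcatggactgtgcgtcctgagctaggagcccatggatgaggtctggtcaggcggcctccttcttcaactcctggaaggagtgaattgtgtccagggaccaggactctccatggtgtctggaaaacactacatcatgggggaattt
Ptgir +1.9 kb: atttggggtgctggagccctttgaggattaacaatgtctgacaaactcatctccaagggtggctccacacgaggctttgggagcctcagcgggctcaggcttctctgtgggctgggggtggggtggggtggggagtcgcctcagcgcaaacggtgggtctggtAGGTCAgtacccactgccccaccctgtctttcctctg
Ptger2 +17.8 kb: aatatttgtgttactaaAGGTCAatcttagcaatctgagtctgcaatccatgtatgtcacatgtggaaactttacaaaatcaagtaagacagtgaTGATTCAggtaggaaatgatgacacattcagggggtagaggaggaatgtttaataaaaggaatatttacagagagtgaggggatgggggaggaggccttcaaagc
These stretches lie at chr6:116439766-116439965, chr6:116438842-116439041, and chr6:116456537-116456736 for Alox5, at chr15:5238671-5238870 and chr15:5261087-5261286 for Ptger4, at chr7:16905724-16905923 and chr7:16908305-16908504 for Ptgir, and at chr14:45005769-45005968 for Ptger2. None of the searched letters was in the Alox5 windows at +21.3 and +22.2 kb, whereas the window at +4.5 kb held GATA letters at 2 places and AGGTCA at 1. The Ptger4 window at +5.4 kb held AP-1 and ETS letters, and that at −17.0 kb held GATA and AHR core letters. AGGTCA stood in both Ptgir windows and, beside an AP-1 match, in that of Ptger2. Among the same 200 bases of all 50039 regions, AGATAA was present in 12.7%, TGATAA in 8.55%, TGANTCA in 14.9%, TGTGGT in 22.7%, AGGAAG in 31.3%, GCGTG in 22.2%, AGGTCA in 12.6%, and GGGCGG in 20.4%. Of the 60 regions, 13 held AGATAA (21.7%), 8 TGATAA (13.3%), 11 TGANTCA (18.3%), 16 TGTGGT (26.7%), 22 AGGAAG (36.7%), 6 GCGTG (10.0%), 10 AGGTCA (16.7%), and 5 GGGCGG (8.33%). These are matches of letters and not shown to be binding sites.

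Counts were also summed over the regions of each gene and library, and fitted over all 17491 genes with a region. Of the 10 genes, 6 differed over the tissues (34.9% of all genes did), namely Alox5, Ptger2, Ptgir, Hpgds, Ltc4s, and Alox5ap. Alox5 was higher in pancreas than in each other tissue (1.54% of all genes were highest in pancreas), and Ptger2 was lower in SI than in each other tissue (3.01% of all genes were lowest in SI). Ptger4, Cysltr1, Ptgdr2, and Ptgs1 did not pass the test on their sums. Summed CPM refer to the total over all genes and are therefore not on the scale of the CPM of a region.

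**Figure D1:**
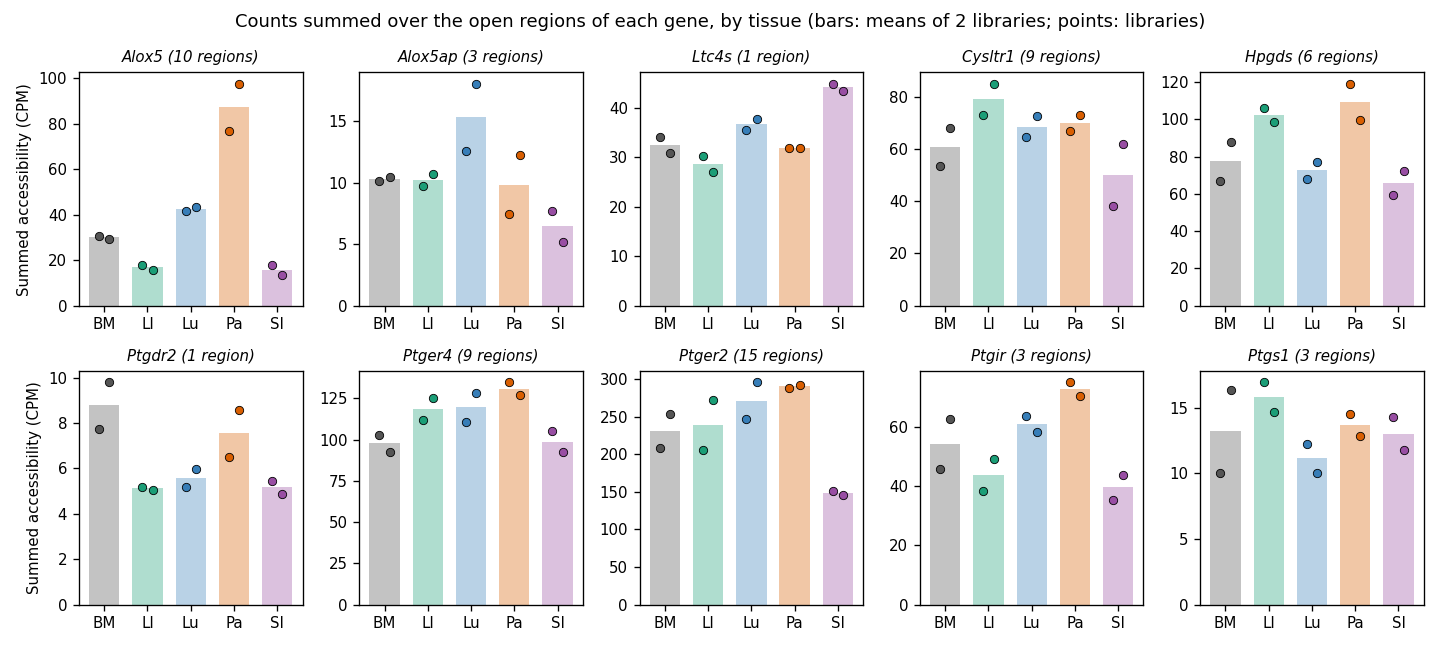
Summed accessibility (CPM, vertical axis) of the 10 genes in ILC2s of BM, LI, lung (Lu), pancreas (Pa), and SI, with bars at the mean of 2 libraries and a point for each library. Both pancreas libraries of Alox5 (77.1 and 97.7 CPM) lie above the other 8, and both SI libraries of Ptger2 (152 and 146 CPM) lie below the other 8.

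Alox5, on the minus strand of chromosome 6 (116410071 to 116461178), encodes the enzyme that starts leukotriene synthesis, and was the gene with the smallest p among the 10. Its 10 regions summed to 77.1 and 97.7 CPM in the pancreas libraries, 41.4 and 43.3 CPM in lung, 30.8 and 29.3 CPM in BM, 18.0 and 15.8 CPM in LI, and 17.8 and 13.3 CPM in SI. The libraries of pancreas, lung, and BM did not overlap with each other or with those of the intestine, while LI and SI overlapped. Pancreas was 2.06-fold above lung (adjusted p = 0.0029) and 5.62-fold above SI (log2 fold change 2.49 ± 0.18, SE, adjusted p = 5.0e-07). Lung and BM, the next neighbours in the order, did not differ (1.41-fold, adjusted p = 0.070), BM was 1.78-fold above LI (adjusted p = 0.0035), and LI and SI did not differ (adjusted p = 0.73).

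The 10 regions of Alox5 did not share 1 pattern. The region with the smallest p among the 60, 21.3 kb into the gene in intron 3 (116439503 to 116440227), held 23.6 and 29.2 CPM in pancreas, 10.5 and 10.6 CPM in lung, 5.38 and 7.41 CPM in BM, 3.49 and 3.91 CPM in LI, and 4.24 and 3.34 CPM in SI (adjusted p = 2.3e-06), on 40 to 401 counts per library. Pancreas was 2.50-fold above lung here (adjusted p = 0.0066), 4.12-fold above BM, 6.97-fold above SI, and 7.08-fold above LI. The neighbouring region at +22.2 kb, in the same intron, was more strongly biased, with 8.72 and 15.4 CPM in pancreas against 0.825 to 2.98 CPM in the other 8 libraries (adjusted p = 2.7e-05), and was 4.50-fold above lung (adjusted p = 0.0066). These were the only regions of the 60 to be highest in pancreas with an adjusted p under 0.05 in each contrast. At +18.1 kb, pancreas held 8.19 and 8.63 CPM and the other libraries 0.592 to 4.12 CPM, and at +30.1 kb, pancreas held 4.12 and 8.52 CPM and the others 0.627 to 2.26 CPM. Both regions lie in intron 3 too, and were highest in pancreas by unadjusted p. Without pancreas replicate 2 neither was, and the F test at +30.1 kb was then not passed (adjusted p = 0.076). Without lung replicate 2, the region at +18.1 kb was not either. The rule also failed at +18.1 kb with a trend with width and GC content removed. At +30.1 kb it failed with a trend with mean count removed.

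The other regions of Alox5 were also open in lung and, in part, in BM. At +4.5 kb in intron 1 (116456361 to 116456911), BM held 9 and 7.09 CPM, pancreas 8.72 and 6.90 CPM, and lung 8.08 and 5.77 CPM, against 1.92 and 2.39 CPM in LI and 2.31 and 2.79 CPM in SI (adjusted p = 0.00023). The 6 libraries of the first group did not overlap with the 4 intestinal ones, and within each group no contrast was called (BM against pancreas, adjusted p = 0.95; LI against SI, adjusted p = 0.71). The ratio of accessibility at +21.3 kb to that at +4.5 kb, which does not depend on how libraries are scaled, was 2.71 and 4.23 in the pancreas libraries and 0.598 to 1.83 in the other 8. This pair was chosen after its values were seen, so the ratio is a description. At the start of the gene, where no region counted as a promoter, the region at +0.2 kb in coding exon 1 held 12.2 and 12 CPM in pancreas, 6.86 and 8.45 CPM in lung, 5.29 and 6.40 CPM in BM, 3.14 and 1.95 CPM in LI, and 3.08 and 1.43 CPM in SI (adjusted p = 0.00016). Here pancreas exceeded BM (2.07-fold, adjusted p = 0.034), LI, and SI, and did not pass the test against lung (1.58-fold, adjusted p = 0.28). The regions at +5.1, +7.9, and +8.8 kb differed as well (adjusted p = 0.0011, 0.0062, and 0.0025), with the highest mean in pancreas in each. At +33.4 kb, the last region of intron 3, the order was another, since BM was highest with 2.94 and 3.04 CPM and SI lowest with 0.385 and 0.105 CPM (adjusted p = 0.013). It was lowest in SI by unadjusted p, but not without LI replicate 1, pancreas replicate 2, or SI replicate 2. Its adjusted p over the tissues rose to 0.062 without BM replicate 1, 0.058 without BM replicate 2, and 0.064 without SI replicate 2, on as few as 3 counts in a library.

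**Figure D2:**
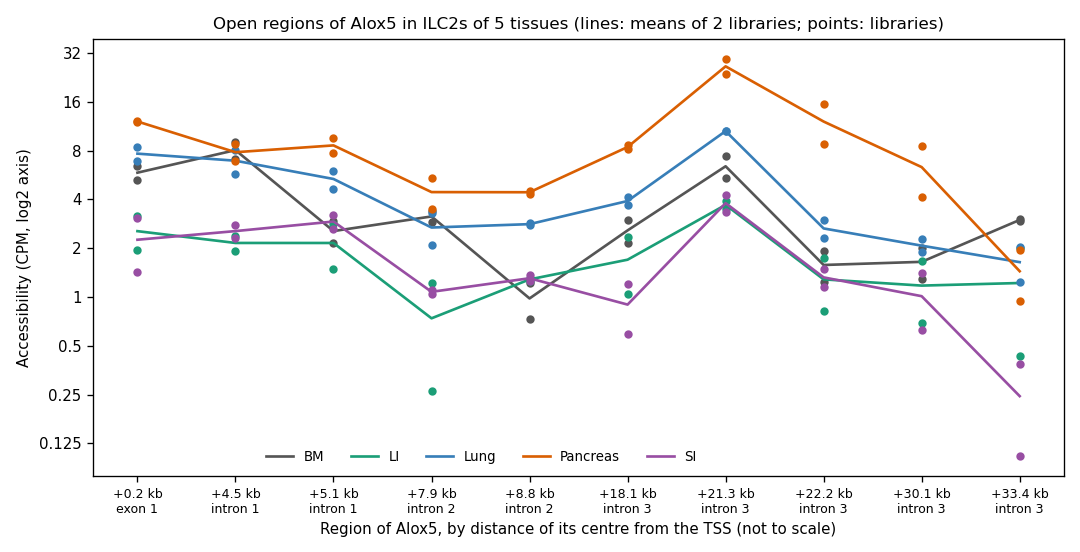
Accessibility (CPM, log2 axis) of the 10 regions of Alox5, in order of the distance of their centres from the TSS, with lines through the tissue means and points for the 2 libraries of each tissue. Pancreas stands apart from +18.1 to +30.1 kb, whereas BM, lung, and pancreas lie together at +4.5 kb, and SI falls to 0.385 and 0.105 CPM at +33.4 kb.

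The genes whose summed accessibility was most like that of Alox5 over the 10 libraries were sought among the 15290 genes with a mean of at least 5 CPM, by Pearson's correlation of log2 CPM. They were Qrfp (r = 0.974), Gm5420 (r = 0.961), Gfpt1 (r = 0.961), Stk16 (r = 0.955), and Cd247 (r = 0.946). In each of these, the mean was highest in pancreas and next highest in lung, for example 24.1 CPM in pancreas, 17.8 CPM in lung, and 10.1 CPM in SI for Qrfp. The libraries are shared by all genes, and the correlations are descriptive.

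Alox5ap encodes the membrane protein that presents arachidonic acid to 5-lipoxygenase, and had 3 regions in its introns on chromosome 5. Unlike Alox5, its sums were highest in lung (12.6 and 18.0 CPM) and lowest in SI (7.71 and 5.20 CPM), with 10.2 and 10.4 CPM in BM, 9.73 and 10.7 CPM in LI, and 7.45 and 12.2 CPM in pancreas (adjusted p = 0.035). Only lung and SI differed in a direct contrast (2.38-fold, adjusted p = 0.0079). The F test on the sums was lost without BM replicate 1 or 2, LI replicate 1 or 2, lung replicate 2, or SI replicate 2, with adjusted p-values from 0.051 to 0.23, and with thinned counts (0.11). The region at +0.8 kb (149265588 to 149266088) was highest in lung, with 3.21 and 4.97 CPM there against 0.488 to 1.52 CPM in the other 8 libraries (adjusted p = 0.0028). Lung exceeded each other tissue at an adjusted p under 0.05, by 2.93-fold in BM up to 5.55-fold in SI, but without lung replicate 2 the adjusted p over the tissues was 0.074. At +2.6 kb, SI was lowest with 4.72 and 3.41 CPM, and the other 8 libraries held 6.12 to 12.2 CPM (adjusted p = 0.016). This call was lost without lung replicate 2 (adjusted p = 0.057) or SI replicate 2 (adjusted p = 0.083) and with thinned counts (0.065), and SI was not lowest by the rule without pancreas replicate 2 or SI replicate 2. The rule also failed at +2.6 kb with library totals alone and with thinned counts. The region at +10.0 kb, with 1.18 to 2.80 CPM, did not pass the test (adjusted p = 0.90).

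Ltc4s, the synthase of leukotriene C4, had a region in intron 4, 1.5 kb from its TSS (chr11:50236701-50237300). It held 49.6 and 49.1 CPM in SI, 38.8 and 41.1 CPM in lung, 41.2 and 36.2 CPM in BM, 34.0 and 33.2 CPM in pancreas, and 32.5 and 28.3 CPM in LI (adjusted p = 0.033). Both SI libraries lay above the other 8. SI exceeded LI (1.62-fold, adjusted p = 0.024) and pancreas (1.47-fold, adjusted p = 0.040), and did not pass the test against lung (adjusted p = 0.27) or BM (adjusted p = 0.16). The F test was lost without any 1 of the LI, lung, pancreas, and SI libraries (adjusted p from 0.052 to 0.14), and with the trend with width and GC content removed (0.071).

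Of the prostaglandin enzymes, Ptgs1 encodes the constitutive cyclooxygenase, and none of its 3 regions differed over the tissues. The promoter region on chromosome 2 (36230227 to 36230802) held between 2.89 and 7.93 CPM (adjusted p = 0.38), and the libraries of the 5 tissues overlapped. The sums of the gene ranged from 10.0 to 17.0 CPM (adjusted p = 0.53), and the region at +48.5 kb had an adjusted p of 0.074. No region was assigned to Ptgs2, the inducible cyclooxygenase.

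Hpgds encodes the synthase of prostaglandin D2 in haematopoietic cells. Its sums were 119 and 99.5 CPM in pancreas, 106 and 98.4 CPM in LI, 67.2 and 88.1 CPM in BM, 68.0 and 77.3 CPM in lung, and 59.6 and 72.3 CPM in SI (adjusted p = 0.0072). Pancreas and LI lay above the other tissues without overlap. Pancreas exceeded SI (1.66-fold, adjusted p = 0.0061), lung (1.51-fold, adjusted p = 0.049), and BM (1.41-fold, adjusted p = 0.042), and did not pass the test against LI (adjusted p = 0.92). With the libraries scaled by their totals alone, the sums no longer differed (adjusted p = 0.26), nor did they after a trend with GC content and width was removed (adjusted p = 0.18). The promoter region (chr6:65144493-65145088) held 89.6 and 67.4 CPM in pancreas, 72.6 and 65.9 CPM in LI, 54.0 and 68.4 CPM in BM, 47.6 and 52.4 CPM in lung, and 41.5 and 50.7 CPM in SI (adjusted p = 0.021). Its adjusted p was 0.28 with totals alone, 0.059 without lung replicate 1, and 0.082 without pancreas replicate 1.

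A region upstream of Hpgds, at −45.8 kb (65190293 to 65190798) differed more than its promoter. It held 8.19 and 7.08 CPM in LI and 5.83 and 8.41 CPM in pancreas, 3.37 and 4.39 CPM in lung, 1.91 and 1.89 CPM in BM, and 1.20 and 3.27 CPM in SI (adjusted p = 0.0016). LI was 4-fold above BM (adjusted p = 0.0019) and 3.34-fold above SI (adjusted p = 0.012), so that the 2 intestinal tissues differed here. At +29.6 kb, beyond the end of Hpgds and inside Smarcad1, lung was lowest with 2.23 and 1.79 CPM, and the other 8 libraries held 3.66 to 7.58 CPM (adjusted p = 0.0042). Lung was below each other tissue at an adjusted p under 0.05, but the rule was not met without lung replicate 2 (adjusted p over the tissues, 0.047). The region at +3.9 kb in intron 1 held 12.7 to 17.6 CPM and did not pass the test (adjusted p = 0.90).

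Among the receptors through which these mediators activate ILC2s, Cysltr1, the receptor of cysteinyl leukotrienes on chromosome X, did not pass the test on its sums (adjusted p = 0.098). They ranged from 38.2 CPM in SI replicate 1 to 85.0 CPM in LI replicate 2, and the SI libraries were 38.2 and 62.0 CPM. The sums differed without SI replicate 2 (adjusted p = 0.0032). The region at −4.7 kb held 8.72 and 7.17 CPM in LI, 6.01 and 5.61 CPM in pancreas, 3.69 and 4.58 CPM in lung, 3.82 and 3.31 CPM in BM, and 2.98 and 3.94 CPM in SI (adjusted p = 0.013). LI exceeded BM (2.22-fold, adjusted p = 0.0096) and SI (2.27-fold, adjusted p = 0.022). This call was lost without LI replicate 1 (adjusted p = 0.076), with the trend with width and GC content removed (0.083), and with counts thinned to equal depth (0.056). The region at −25.1 kb differed too (adjusted p = 0.020; 0.051 without pancreas replicate 2 and 0.057 with thinned counts), with the highest means in LI and pancreas. At +7.7 kb in intron 1, SI was lowest with 1.93 and 3.38 CPM against 4.31 to 7.41 CPM, while the F test gave an adjusted p of 0.069 (0.028 without SI replicate 2), and only 6 of 21 other settings kept SI lowest by the rule. All 9 regions of Cysltr1 lie inside Gm5127, a longer gene that spans it.

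Ptgdr2, the gene of CRTH2, had a region in coding exon 3, 3.4 kb from its TSS (chr19:10940300-10940911). It held 9.35 and 11.5 CPM in BM, 6.95 and 8.95 CPM in pancreas, 5.65 and 6.51 CPM in lung, 6.02 and 5.54 CPM in SI, and 5.58 and 5.30 CPM in LI (adjusted p = 0.031). Both BM libraries lay above the other 8. BM exceeded LI (1.92-fold, adjusted p = 0.015), SI (1.81-fold, adjusted p = 0.026), and lung (1.71-fold, adjusted p = 0.048), and not pancreas (adjusted p = 0.29). The call was lost without either BM, LI, or lung library (adjusted p from 0.051 to 0.20) and with totals alone (adjusted p = 0.060) or the trend with width and GC content removed (0.068). On the scale of gene sums, where p-values were adjusted over genes, Ptgdr2 did not pass (adjusted p = 0.11).

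The receptors that raise cAMP (Ptger2, Ptger4, and Ptgir) did not share 1 pattern. Ptger2, the EP2 receptor of prostaglandin E2 on chromosome 14, had 15 regions, and its sums were 152 and 146 CPM in SI, 208 and 254 CPM in BM, 206 and 272 CPM in LI, 247 and 296 CPM in lung, and 289 and 292 CPM in pancreas (adjusted p = 0.0026). SI was below each other tissue, from 1.55-fold below BM (adjusted p = 0.014) to 1.95-fold below pancreas (adjusted p = 0.00076), and the other 4 tissues were not separated. The region over the untranslated part of exon 1, at +0.8 kb, did not follow the sums, with 40.2 to 59.4 CPM over the libraries and overlapping tissues (adjusted p = 0.66). The difference lay downstream of the gene instead, where 11 regions were given to Ptger2 by the nearest TSS.

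At +17.8 kb, past the 3' end of Ptger2 (45005574 to 45006163), SI held 15.9 and 20.0 CPM, and the other libraries held 30.3 and 29.0 CPM in BM, 38.3 and 35.2 CPM in LI, 34.5 and 43.2 CPM in lung, and 43.4 and 49.5 CPM in pancreas (adjusted p = 0.000595). SI was lower than each other tissue at an adjusted p under 0.05, from 1.65-fold below BM to 2.58-fold below pancreas. The strongest region by counts, at +52.7 kb (45040231 to 45041483), held 42.5 and 53.9 CPM in SI and 66.9 to 121 CPM in the other 8 libraries (adjusted p = 0.0024), and SI was below each other tissue by 1.75-fold to 2.22-fold, each at an adjusted p under 0.05. Without LI replicate 2, it no longer met the rule for SI. SI was also lowest at +23.4, +46.4, +87.1, and +101.3 kb by unadjusted p. The F test was not passed at +23.4 kb (adjusted p = 0.075, and 0.0038 without SI replicate 1), where SI held 2.02 and 0.418 CPM, and all 4 depended on single libraries. SI was no longer lowest by the rule at +23.4 kb without LI replicate 2, pancreas replicate 2, or SI replicate 2, at +46.4 kb without LI replicate 2 or SI replicate 1, at +87.1 kb without LI replicate 1 or SI replicate 2, and at +101.3 kb without LI replicate 2, lung replicate 2, pancreas replicate 1, or SI replicate 2. The rule also failed at +46.4, +87.1, and +101.3 kb with totals alone. At +87.1 and +101.3 kb it failed too with DESeq2 on 4 libraries, with thinned counts, and with the trend with width and GC content removed. At +87.1 kb the adjusted p over the tissues rose from 0.011 to 0.057 without pancreas replicate 2, and at +101.3 kb from 0.035 to between 0.053 and 0.18 without either BM library, lung replicate 2, pancreas replicate 2, or SI replicate 2, and to 0.062 with thinned counts. In the other direction, the region at +1.9 kb in intron 1 was highest in pancreas, with 16.3 and 19.5 CPM against 6.83 to 12.3 CPM (adjusted p = 0.021). Its adjusted p was 0.079 without pancreas replicate 1 and 0.24 without pancreas replicate 2, and the rule was not met without SI replicate 2. Further downstream, the regions at +98.0, +102.1, and +106.8 kb differed over the tissues with their lowest means in BM, SI, and SI, respectively. The call at +98.0 kb was lost without BM replicate 1 or 2 or pancreas replicate 2 (adjusted p from 0.052 to 0.069), with thinned counts (0.075), and with the trend with width and GC content removed (0.094), and that at +106.8 kb without BM replicate 2 (adjusted p = 0.15).

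Ptger4, the EP4 receptor of prostaglandin E2 on chromosome 15, had 9 regions, of which 6 differed, although its sums did not (92.4 to 135 CPM, adjusted p = 0.077). BM went in opposite directions at 2 of them. At −17.0 kb (5260936 to 5261436), BM held 4.21 and 2.58 CPM and the other 8 libraries 0.248 to 0.872 CPM (adjusted p = 0.00047), on 8 to 86 counts. BM exceeded each other tissue, from 4.01-fold over pancreas (adjusted p = 0.017) to 12-fold over lung (adjusted p = 0.00039). This region lies upstream of Ptger4 and was given to it by the nearest TSS. It would not count as a member if only regions inside a gene or its promoter were kept, or with predicted RefSeq transcripts added. At +5.4 kb in intron 2 (5238520 to 5239020), BM held 2.99 and 3.08 CPM and was lowest, with 10.6 and 11.7 CPM in LI, 6.47 and 9.55 CPM in lung, 11.9 and 7.44 CPM in pancreas, and 9.73 and 10.3 CPM in SI (adjusted p = 0.0010). BM was 2.64-fold below lung (adjusted p = 0.0030) and 3.69-fold below LI (adjusted p = 0.00028). The ratio of the −17.0 kb region to the +5.4 kb region was 1.41 and 0.836 in BM and 0.0260 to 0.116 in the other 8 libraries, again described after the pair was seen. Without BM replicate 1 the −17.0 kb region no longer met the rule for BM (adjusted p over the tissues, 0.044).

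At the other regions of Ptger4 the differences were smaller or less stable. The region at −6.2 kb had its highest mean in pancreas, with 4.24 and 4.42 CPM, and its lowest in SI, with 1.16 and 1.71 CPM (2.99-fold, adjusted p = 0.011; adjusted p over the tissues, 0.036). Its F test was lost under 9 settings, namely without either BM or either pancreas library, lung replicate 2, or SI replicate 1 (adjusted p from 0.052 to 0.095), with totals alone (0.054), with the trend with width and GC content removed (0.061), and with thinned counts (0.094). The region at −88.9 kb was lowest in BM, with 0.636 and 1.38 CPM against 2.26 to 5.73 CPM (adjusted p = 0.012). Its F test was lost without BM replicate 1. The rule was not met without BM replicate 1 or either SI library. It also failed with DESeq2 on 4 libraries, with thinned counts, and with the trend with width and GC content or with mean count removed. The region at +6.7 kb was also lower in BM, with 9 and 9.94 CPM, than in LI (1.90-fold, adjusted p = 0.0069) and lung (1.77-fold, adjusted p = 0.018), and its adjusted p of 0.014 rose to 0.063 without BM replicate 1 and to 0.059 with the trend with width and GC content removed. The promoter region (5244142 to 5244713) was open in each tissue, with 50.3 and 36.4 CPM in SI and 51.7 to 74.6 CPM in the other 8 libraries (adjusted p = 0.041). SI was lower there than pancreas (1.58-fold, adjusted p = 0.025), lung (1.56-fold, adjusted p = 0.026), and BM (1.46-fold, adjusted p = 0.048). The F test at the promoter was lost without any 1 of the BM, LI, or lung libraries, pancreas replicate 1, or SI replicate 2 (adjusted p from 0.055 to 0.13), and with totals alone (adjusted p = 0.084) or the trend with mean count removed (0.072). The regions at +2.0 and +7.5 kb in intron 2 did not pass the test (adjusted p = 0.073 and 0.80).

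Ptgir, the prostacyclin receptor on chromosome 7, had regions at its promoter and in intron 1 at which BM took opposite places, whereas the other 4 tissues kept the order pancreas, lung, LI, and SI in their means. The promoter region (16905362 to 16906285) was lowest in BM, with 8.56 and 11.9 CPM against 19.3 and 19.2 CPM in LI, 20.1 and 20.7 CPM in lung, 27.6 and 25.1 CPM in pancreas, and 14.9 and 20.4 CPM in SI (adjusted p = 0.0030). BM was lower than each other tissue at an adjusted p under 0.05, from 1.73-fold below SI to 2.58-fold below pancreas. At +1.9 kb (16908075 to 16908733), BM had the highest mean with 39.0 and 54.3 CPM, followed by pancreas with 44.3 and 39.9 CPM and lung with 41.8 and 35.9 CPM, whereas LI held 15.5 and 26.5 CPM and SI 19.2 and 22.0 CPM (adjusted p = 0.0014). BM, pancreas, and lung each exceeded both intestinal tissues there, from 1.83-fold (lung over LI, adjusted p = 0.029) to 2.26-fold (BM over SI, adjusted p = 0.0020), and the 4 intestinal libraries lay below the other 6. The ratio of intron to promoter was 4.55 and 4.58 in BM and 0.805 to 2.08 in the other 8 libraries, also described after it was seen. The sums of Ptgir, at 75.2 and 70.5 CPM in pancreas and 35.5 and 43.9 CPM in SI, therefore hid the difference at the promoter (adjusted p of the sums, 0.0064). Without BM replicate 1 the promoter no longer met the rule for BM (adjusted p over the tissues, 0.041).

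**Figure D3:**
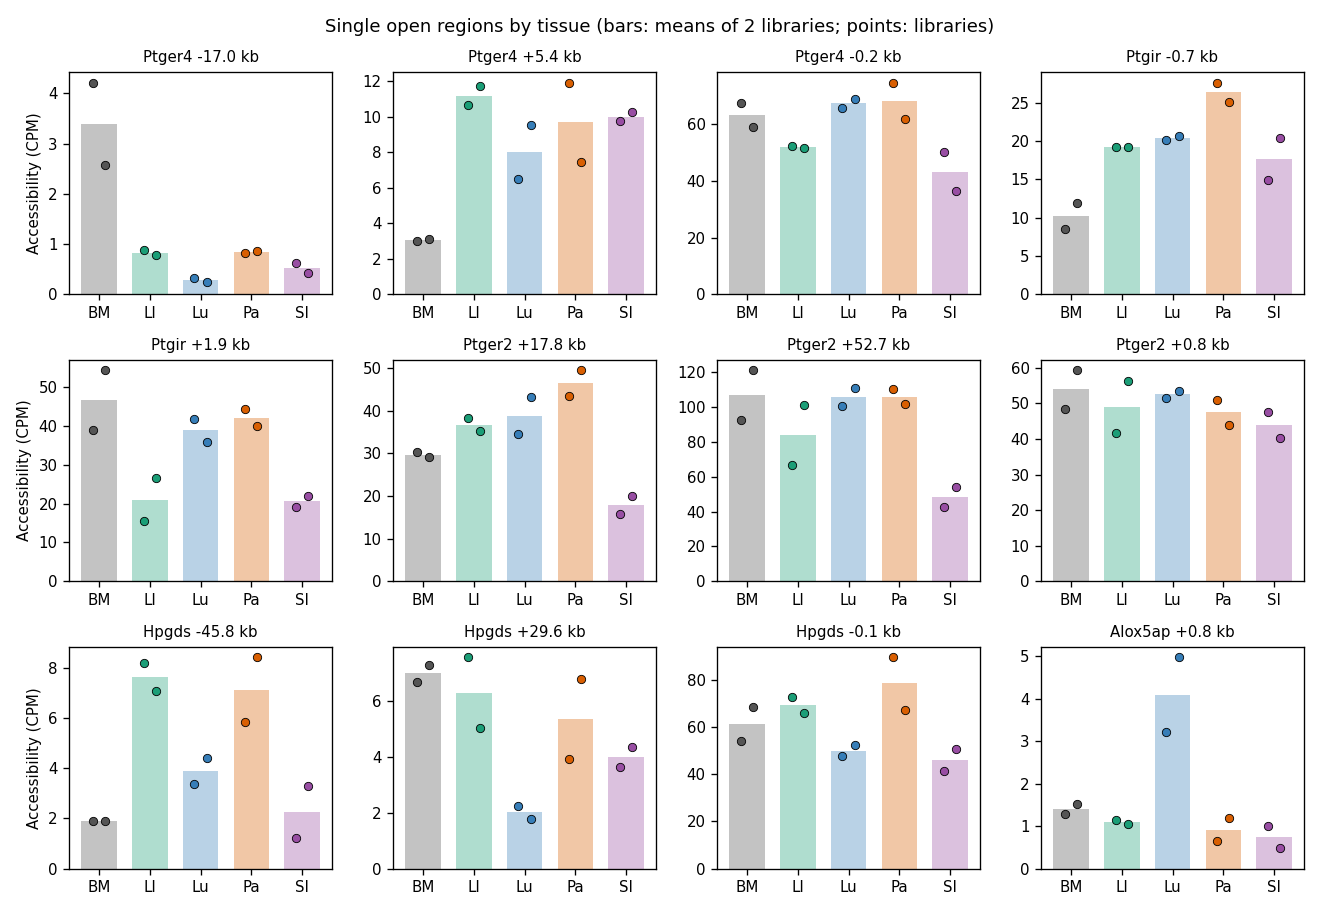
Accessibility (CPM, vertical axes from 0) of 12 regions of Ptger4, Ptgir, Ptger2, Hpgds, and Alox5ap by tissue (Lu, lung; Pa, pancreas), with bars at the mean of 2 libraries and a point for each library. BM is the only high tissue at Ptger4 −17.0 kb and the lowest at Ptger4 +5.4 kb and at the Ptgir promoter, SI is lowest at Ptger2 +17.8 and +52.7 kb, and Ptger2 +0.8 kb shows overlapping tissues.

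Of the 20 regions that met the rule for highest or lowest in a tissue (33.3% of the 60; 21.9% of all regions met it for some tissue), 4 met it under each of the 21 other settings tried, which included adjusted p-values and the removal of each library in turn. They were Alox5 +21.3 and +22.2 kb (highest in pancreas), Ptger4 +5.4 kb (lowest in BM), and Ptger2 +17.8 kb (lowest in SI). Other ways of assigning regions were not among the 21 settings. Ptger2 +17.8 kb lies outside its gene and would not count as its region if only regions inside a gene or its promoter were kept. Another 5 failed under 1 setting each, namely Alox5ap +0.8 kb and Hpgds +29.6 kb (lung), Ptger4 −17.0 kb and the Ptgir promoter (BM), and Ptger2 +52.7 kb (SI), in each case when a particular library was left out.

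**Figure D4:**
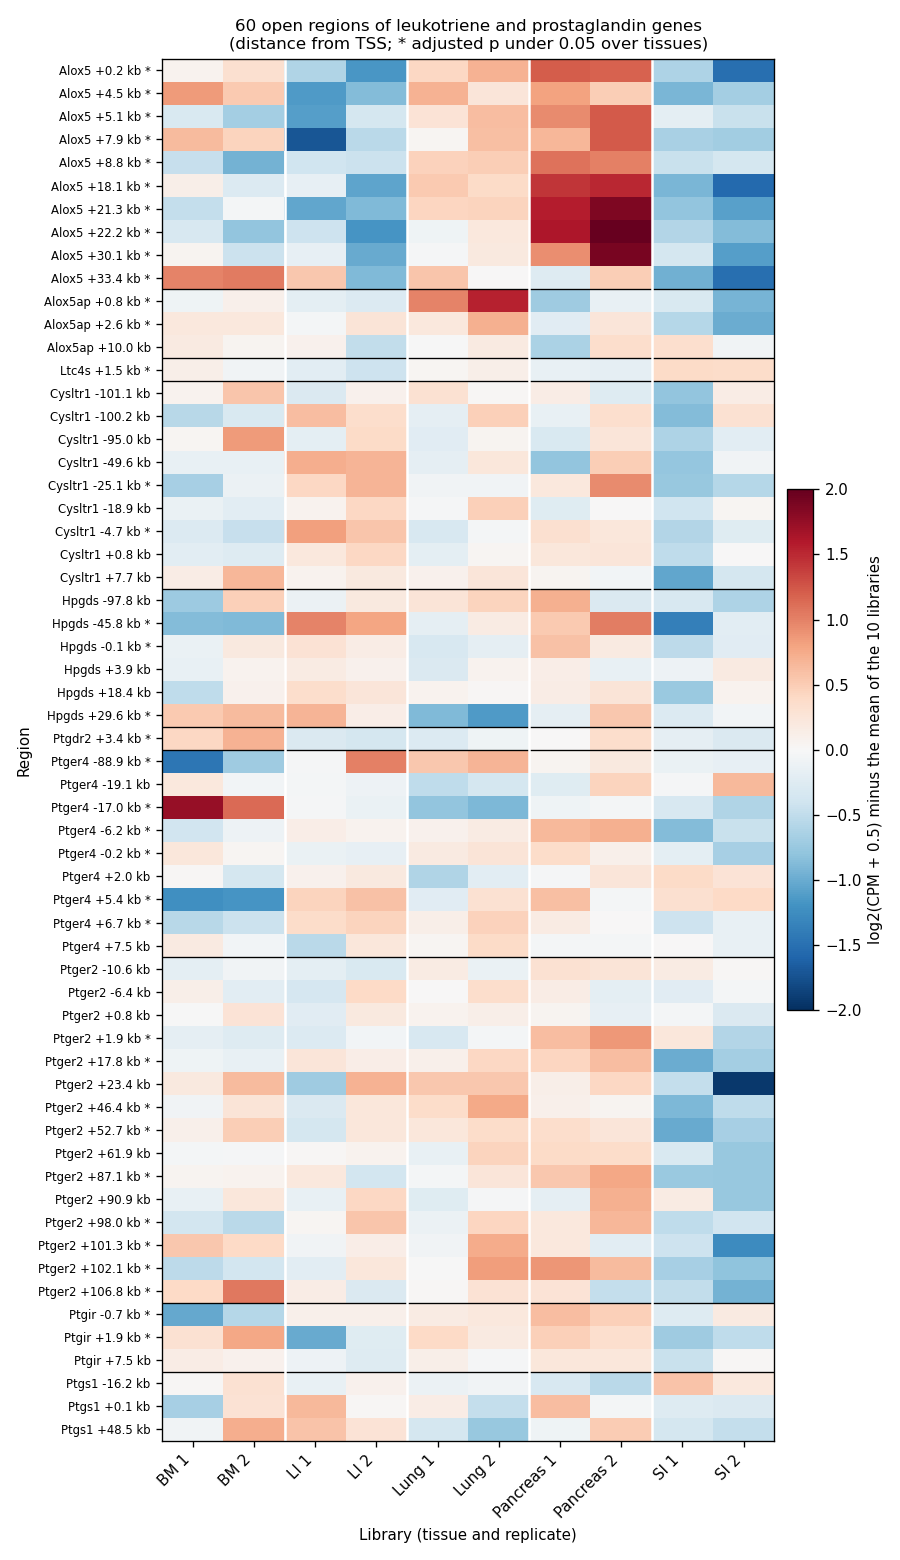
Heatmap of the 60 regions (rows, by gene and distance from the TSS) in the 10 libraries (columns), coloured by log2(CPM + 0.5) minus the mean of the row, with the colour scale ending at 2 in both directions and asterisks at the 36 regions that differed. Red fills the pancreas columns of Alox5 up to +30.1 kb, and blue fills the SI columns of most Ptger2 regions downstream of the gene. BM is red at Ptger4 −17.0 kb and blue at Ptger4 +5.4 kb.

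The other genes of the pathways were followed with a list of 36 enzymes, transporters, and receptors. Of these, 30 had a region, and 99 regions in all were given to them. Of the 99 regions, 41 (41.4%) differed over the tissues, close to the 44.2% of all regions, and they belonged to 19 genes. Alox15, Alox12b, Alox12e, Ptgs2, Ptgdr, and Ptgfr had no region. Of the 99, 8 were highest in SI (8.08%; 2.80% of all regions) and 7 in BM (7.07%; 4.50% of all). Lung and pancreas were highest at 1 each (1.01%; 1.30% and 1.43% of all), SI was lowest at 4 (4.04%; 3.59% of all), and BM was lowest at 2 (2.02%; 6.63% of all). The 5 with the smallest p included 2 regions upstream of Ptges, the inducible prostaglandin E2 synthase. At −17.0 kb, Ptges held 26.4 and 27.5 CPM in lung, 26.7 and 23.9 CPM in pancreas, 15.6 and 12.3 CPM in LI, 4.04 and 4.98 CPM in SI, and 3.47 and 4.56 CPM in BM (adjusted p = 1.0e-06). At −24.2 kb, Ptges held 15.4 and 14.2 CPM in lung and 11.7 and 11.8 CPM in pancreas against 0.828 to 3.84 CPM in the other 6 libraries (adjusted p = 1.2e-05). Hpgd, which encodes an enzyme that inactivates prostaglandins, had a region at −138.6 kb that was lowest in BM, with 0.391 and 0.552 CPM against 1.71 to 8.42 CPM (adjusted p = 5.0e-06). Abcc4, a transporter that exports prostaglandin E2, had a region at +14.3 kb that was highest in SI, with 12.7 and 8.88 CPM against 0.598 to 3.77 CPM (adjusted p = 2.1e-05). Mgst3, a microsomal glutathione transferase, had a region at +9.5 kb that was highest in BM, with 12.7 and 4.79 CPM against 0.221 to 2.05 CPM (adjusted p = 3.2e-05). The list was made with earlier results of these data known, and its count is read only against the share of all regions.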

How the data were processed

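ATAC-seq libraries of ILC2s from 5 tissues (2 each) were analysed. Per the labels and methods, the authors removed adapters and poor reads, mapped to mm10 with Bowtie2 2.2.9, kept reads with a unique position, called peaks with MACS2 2.1.1, kept those present in both replicates, merged them with HOMER, counted reads with bedtools, and deposited the raw counts per merged peak, without normalization. Removal of duplicate or mitochondrial reads is not given in the sources used here, and either could change the counts. PCR reads are not independent molecules.

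The counts were fitted with edgeR 4.0.16 (TMM, glmQLFit, glmQLFTest, 10 libraries, tissue as the only factor) over the 49981 regions with at least 1 count, because each tissue has only 2 libraries. F tests over tissues and the 10 pairwise contrasts were adjusted by Benjamini-Hochberg over all regions. The rule for highest or lowest in a tissue used unadjusted p under 0.05 against each other tissue. Counts summed by gene were fitted likewise, with a region of 2 genes entering both. Fitted folds and the means behind CPM differ slightly. The scripts were tested on simulated data.

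Genes, TSSs, and exons came from the curated RefSeq transcripts of GRCm38.p6, whose chromosome names and lengths were checked against the table. A region was a promoter when its centre lay at most 1000 bp before or 100 bp after a TSS. Coordinates of regions are those of the table, and distances run from the TSS to the centre of a region. The genes, lists, and printed windows were chosen with earlier results of these data known. Named were every promoter region, the region outside promoters with the smallest p, and any region highest or lowest in a tissue, together with the 5 other pathway regions with the smallest p. Further regions are given for the order within a gene and were chosen after their values were seen. Markers were Gata3, Il1rl1, Rora, Il7r, Klrg1, Il5, Il13, Icos, and Areg for ILC2s. Epithelial markers had a region at 1 of 3 promoters (Cdh1). It held 6.01 and 9.49 CPM in pancreas, 6.26 and 4.88 CPM in SI, and 2.89 to 5.49 CPM in BM, LI, and lung. Alternatives were DESeq2 1.42.0, other scalings and filters, the replicate number as a block, thinned counts, removal of trends with GC content and width or with mean count (loess, span 0.3), other ways of assigning regions, and leaving out each library. Predicted RefSeq transcripts were added as an alternative after the data were seen.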

Additional observations from a re-analysis of the deposited data

How the results depend on the processing

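No log2 fold change of the 55 named regions and gene sums reversed in 1045 values from 19 alternative settings. Only the contrast of the highest over the lowest tissue was followed for each. It was picked from the same data, and the settings share most libraries, so reversals were unlikely from the start. Of these values, 945 kept their side of the threshold, 87 lost the call, and 13 gained it. The causes of the changes below were not tested. The 36 of 60 regions that differed were 21 of 30 when only regions inside a gene or its promoter were kept, and the 41 of 99 of the other pathway genes were 20 of 57, since fewer regions were counted. With predicted transcripts added, they were 28 of 47 and 35 of 90. When only regions inside a gene or its promoter were kept, the regions highest in BM fell from 1 to 0, lowest in lung from 1 to 0, and lowest in SI from 9 to 3. Predicted transcripts, added after the data were seen, also left 0 highest in BM. The 9 regions lowest in SI were 4 with library totals alone, 5 with thinned counts, and 2 with adjusted p-values, and the 5 highest in pancreas were 2 with adjusted p-values. Regions highest in lung rose from 1 to 2 with totals alone and with DESeq2 on 4 libraries. Regions highest in SI rose from 0 to 1 when a trend with width and GC content, or else with mean count, was removed, and the latter also raised those highest in BM from 1 to 2. Scaling by totals alone shifted the tissues by −0.11 to 0.15 on the log2 scale. Leaving out 1 library gave 28 to 36 differing regions, 25 to 43 of the other pathway genes (25 without BM replicate 1), and 4 to 6 gene sums. It gave 1 to 1 highest in BM, 0 to 0 in LI, 0 to 2 in lung (0 without lung replicate 2, 2 without lung replicate 1 or either SI library), 3 to 6 in pancreas (3 without pancreas replicate 2), and 0 to 0 in SI. It gave 1 to 3 lowest in BM (1 without BM replicate 1), 0 to 1 in LI (1 without LI replicate 2), 0 to 1 in lung (0 without lung replicate 2), 0 to 0 in pancreas, and 5 to 11 in SI (5 without pancreas replicate 2 or SI replicate 2). In these fits the lone library of a tissue is assumed to vary like the others. The deviations of samples of equal number correlated by −0.22 to 0.20 over the 10 pairs of tissues. They were over 0.1 in 4 pairs, among BM, LI, lung, and SI, and not in the pairs with pancreas. A shared number was not taken as pairing, since not every pair was over 0.1 and the labels tie it to no shared batch. With the replicate number as a block, 36 regions differed and the gene sums rose from 6 to 7 (Cysltr1, adjusted p = 0.029), 40 other pathway regions differed, and 2 regions were highest in lung. Regions with few counts, such as Alox5 +33.4 kb with 3 counts in a library, limit the precision of their folds.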
